A study of Homo sapiens with 9 samples.

Results

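The genes described here encode 10 scaffold and junction proteins that bind the transcriptional coactivator YAP or act on the kinases that restrain it. They comprise the angiomotins AMOT, AMOTL1 and AMOTL2, the LIM-domain proteins AJUBA and LIMD1, and the KIBRA proteins WWC1 and WWC2. The others are the phosphatase PTPN14 and the FERM-domain proteins FRMD6 and NF2. The 10 genes were chosen by name, with earlier results of these data known. Every array probe annotated to them was taken, which gave 18 of the 47231 probes. Of the 10 genes, 9 passed a filter on dim probes and were among the 16180 genes tested. AJUBA is listed under its current symbol in the probe annotation, and its older symbol is JUB. The cells were MKN45, a line grown from a human gastric cancer, and each of 9 single-colour bead arrays held the RNA of 1 sample. The 3 groups of 3 arrays were mock cells, cells with a control vector, and cells with a vector for YAP-S127A. In YAP-S127A an alanine takes the place of a serine that LATS kinases phosphorylate, so that this mark for retention in the cytoplasm cannot be set there. How the vectors were delivered, for how long the cells carried them and whether the lines were clones is not given in the sources used here. Whether the 3 arrays of a group stand for separate cultures is not stated, and the p-values then cover only the spread among these samples, possibly a technical one.

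In the Hippo pathway, a cascade of the MST and LATS kinases phosphorylates YAP and keeps it from joining TEAD transcription factors on DNA. The scaffolds act above or beside this cascade. NF2 (merlin) and the KIBRA proteins bring LATS to the membrane, the angiomotins and PTPN14 bind YAP and hold it at junctions or in the cytoplasm, and Ajuba proteins bind LATS and limit its activity. Several of these genes have been reported as YAP and TEAD targets themselves. Their transcript levels were compared here between cells with YAP-S127A and each control.

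The promoters of the genes whose transcripts rose are printed here, with that of WWC2 beside its relative WWC1, so that the sequence before each start can be read next to the values. They are RefSeq sequences of the build GRCh38.p14 and hold the 250 bases before an annotated start, 5′ to 3′ on the strand of the gene. The capitals mark GGAATG or its reverse complement CATTCC, the core of the sequence bound by TEAD factors. The windows are chr14:22982552-22982801 (minus strand) for the upstream start of AJUBA, chr14:22976843-22977092 (minus strand) for a second start of AJUBA, chr1:214551603-214551852 (minus strand) for PTPN14, chr5:168291395-168291644 (plus strand) for WWC1 and chr4:183099007-183099256 (plus strand) for WWC2.
AJUBA start 1: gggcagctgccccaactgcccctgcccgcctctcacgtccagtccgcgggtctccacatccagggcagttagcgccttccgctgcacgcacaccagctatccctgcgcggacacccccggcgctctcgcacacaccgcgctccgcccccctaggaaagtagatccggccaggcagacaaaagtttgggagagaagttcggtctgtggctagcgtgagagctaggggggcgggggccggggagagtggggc
AJUBA start 2: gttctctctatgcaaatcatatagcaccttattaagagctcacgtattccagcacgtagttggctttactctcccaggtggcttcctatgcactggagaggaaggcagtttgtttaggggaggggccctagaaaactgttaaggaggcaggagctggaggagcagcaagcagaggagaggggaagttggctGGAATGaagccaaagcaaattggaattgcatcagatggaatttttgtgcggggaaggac
PTPN14: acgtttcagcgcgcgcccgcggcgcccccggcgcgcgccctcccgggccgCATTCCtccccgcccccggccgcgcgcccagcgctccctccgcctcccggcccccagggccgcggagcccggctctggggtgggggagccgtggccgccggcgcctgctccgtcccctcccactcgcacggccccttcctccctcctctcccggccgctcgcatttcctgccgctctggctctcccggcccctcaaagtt
WWC1: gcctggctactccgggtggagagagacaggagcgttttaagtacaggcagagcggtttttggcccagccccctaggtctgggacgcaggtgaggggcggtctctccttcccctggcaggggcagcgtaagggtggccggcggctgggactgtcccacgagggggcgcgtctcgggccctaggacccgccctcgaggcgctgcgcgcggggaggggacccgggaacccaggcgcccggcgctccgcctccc
WWC2: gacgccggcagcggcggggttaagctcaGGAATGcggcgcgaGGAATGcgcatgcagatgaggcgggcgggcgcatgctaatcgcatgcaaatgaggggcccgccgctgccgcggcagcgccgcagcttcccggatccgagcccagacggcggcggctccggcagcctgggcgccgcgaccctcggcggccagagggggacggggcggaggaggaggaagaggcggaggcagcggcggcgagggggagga
The table gave 12 such promoters for 9 of the 10 genes, all but LIMD1. The TEAD core was found on either strand in 4 of the 12 windows, against 11.9% of all 35116 promoter windows of the same length. These were AJUBA start 2, 59 bases before the start, PTPN14 at 200 bases, WWC2 at 222 and 208 bases, and 1 of the 2 AMOTL2 windows at 69 bases. The AP-1 motif TGANTCA, searched on both strands, was found in 0 of the 12 windows and in 6.57% of all windows, so that no match overlapped a TEAD core. The windows of WWC1, AMOT, AMOTL1, FRMD6 and NF2 held neither motif. A match of letters describes the window and does not show that a factor binds there, and enhancers were not searched.

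Arrays had a median signal of 107 to 136 intensity units, and precision is limited by there being only 3 of them in a group. On the first principal component of the 16180 genes tested, the YAP-S127A arrays scored 14.4 to 16.8 and the controls −15.9 to −4.07, with mock array 1 at the low end of the controls. The 1 probe for YAP1 was too dim to check the labels, with a mean log2 intensity of 6.12 in YAP-S127A and 6.04 in vector arrays, while CCN1, a well-known YAP target that encodes a secreted matricellular protein, was 2.34 ± 0.11 log2 units (SE) higher than in vector arrays. All 7 epithelial markers examined were bright, with EPCAM at a mean log2 intensity of 13.76 and the lowest, CDH17, at 10.38, and in both comparisons 2 of them, KRT8 and KRT18, rose and CDH17 fell. Of 5 tested fibroblast markers 0 were called in either comparison (limma), with 1 and 2 at an unadjusted p under 0.05, and the brightest, LUM, stood at 6.95. Of 4 endothelial markers only PECAM1 passed the filter, at 6.35, without a call, and of 3 tested immune markers LYZ, which gastric epithelium also makes, fell from 11.50 in vector to 10.73 in YAP-S127A arrays while PTPRC stood at 6.21. The part of these markers in the results below was not tested.

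Of the 10 scaffold genes, 3 rose in YAP-S127A cells against vector and 0 fell: AJUBA, WWC1 and PTPN14. Against mock 2 rose, AJUBA and WWC1, and 0 fell. The threshold was an adjusted p (limma, Benjamini-Hochberg) of 0.05 across the 16180 genes tested. Across those genes 1.76% were called higher and 1.70% lower against vector, and 2.18% higher and 2.07% lower against mock. Genes called higher against both controls made up 1.34% of all. Since the members were chosen with earlier results of these data known, the shares are a description and no test of the list. The other genes, apart from LIMD1, which was too dim to be tested, did not pass in either comparison. At an unadjusted p under 0.05, 4 of the 9 tested genes were higher against vector and the same 4 against mock, the 3 named and AMOT, where 15.6% and 17.0% of all genes passed in either direction. The median difference of the 9 genes was 0.20 against vector and 0.15 against mock on the log2 scale, and that of all genes −0.01 and 0.00. Both comparisons share the YAP-S127A arrays and are not independent of each other. In a bulk RNA sample, more cells that express a gene and more RNA per cell cannot be told apart.

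**Figure D1:**
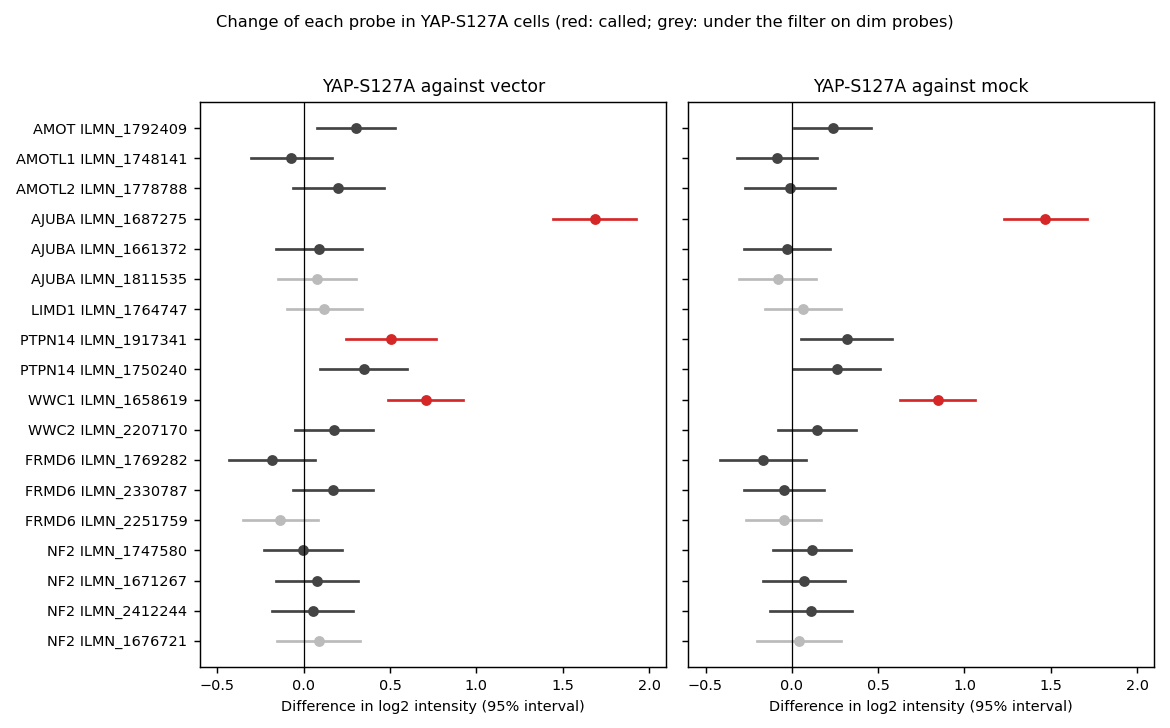
Difference in mean log2 intensity of YAP-S127A arrays from vector (left) and from mock arrays (right) for each of the 18 probes, n = 3 arrays per group, with limma's 95% interval as a line. Red marks probes called at an adjusted p under 0.05 over all probes above the filter, and pale grey the 4 probes under the filter. The bright AJUBA probe (1.69 and 1.47) and WWC1 (0.71 and 0.84) lie apart from the rest.

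AJUBA changed most of the 9 genes. Its LIM-domain protein holds LATS at cell junctions. On its bright probe, ILMN_1687275, the deposited signals were 186, 195 and 185 intensity units in mock arrays, 201, 126 and 160 in vector arrays, and 438, 436 and 322 with YAP-S127A. Each of the latter exceeded every control array, before and after normalization. The mean log2 intensity was 8.57 ± 0.12 in YAP-S127A (SD, n = 3), 6.89 ± 0.22 in vector and 7.10 ± 0.08 in mock arrays. The rise of 1.69 ± 0.11 (log2, SE) against vector and 1.47 ± 0.11 against mock (limma, adjusted p = 8.38e-10 and 9.37e-09) ranked 10 and 14 among all genes tested. The deposited log2 values gave smaller rises of 1.22 and 1.09.

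The other AJUBA probes did not show this change. ILMN_1661372 is annotated to the same transcript accession as the bright probe. Its signals were 150, 129 and 124 in mock, 125, 108 and 121 in vector, and 132, 128 and 102 in YAP-S127A arrays, so that the groups overlapped and all values lay near the median probe of their array. It differed by 0.09 from vector (95% interval −0.16 to 0.34) and by −0.03 from mock (−0.28 to 0.22). ILMN_1811535, annotated to another AJUBA transcript, gave 88.7 to 120 units over the 9 arrays, under the filter on dim probes, and differed by 0.08 from vector. The mean of the AJUBA probes above the filter, which includes the bright probe, was higher by 0.89 against vector and 0.72 against mock. Because the bright probe is part of it, this mean is no separate check on the flat probes. At probes this close to background a change in the transcript would be compressed, and whether the probes match the same part of it was not tested, since their sequences were not used here.

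LIMD1, a relative of AJUBA that also binds LATS, had a single probe with signals of 106 to 114 units in mock, 88.6 to 107 in vector and 92.0 to 112 in YAP-S127A arrays. These lay below the median probe of every array, and the gene failed the filter. In a fit over all probes it differed by 0.12 from vector (95% interval −0.10 to 0.34) and by 0.06 from mock. No change in LIMD1 was seen on this probe, and a fall or a small change could be missed at this signal.

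**Figure D2:**
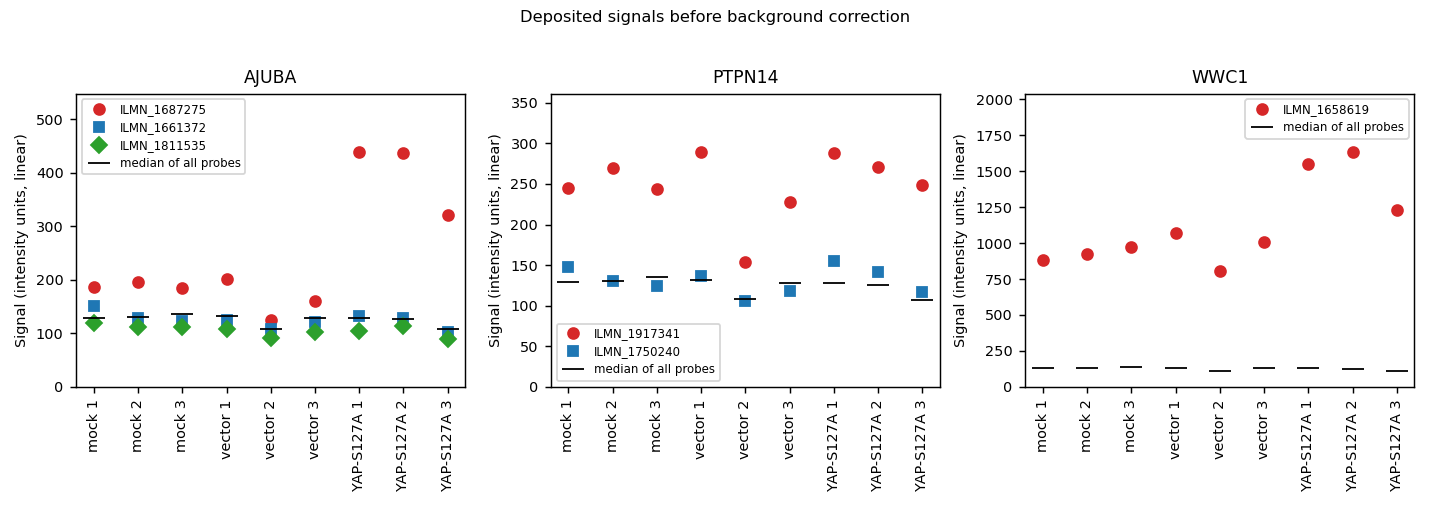
Deposited signals, in linear intensity units before any correction, on each of the 9 arrays for every probe of AJUBA, PTPN14 and WWC1. Black bars give the median of all probes of the array. The bright AJUBA probe reaches 322 to 438 units in YAP-S127A arrays while its other probes stay near the array median.

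WWC1 (KIBRA) rose next most. This cytoplasmic scaffold with WW and C2 domains joins NF2 and LATS and promotes LATS activity. Its probe, ILMN_1658619, gave 880, 926 and 976 units in mock, 1072, 808 and 1007 in vector, and 1552, 1633 and 1232 in YAP-S127A arrays. Again all YAP-S127A arrays lay above all controls on both scales. Mean log2 intensity was 10.55 ± 0.06 (SD, n = 3) in YAP-S127A, 9.84 ± 0.08 in vector and 9.70 ± 0.10 in mock arrays. The rise was 0.71 ± 0.10 (log2, SE), or 1.63-fold, against vector and 0.84 ± 0.10, or 1.80-fold, against mock (limma, adjusted p = 9.82e-05 and 7.77e-06).

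WWC2, the KIBRA relative whose promoter window held 2 copies of the TEAD core, stayed close to the filter level of 6.18. Its log2 intensities were 6.13, 6.21 and 6.24 in mock, 6.14, 6.36 and 6.0 in vector, and 6.31, 6.31 and 6.40 with YAP-S127A. These last lay above the mock arrays and overlapped the vector arrays. The difference was 0.17 from vector (95% interval −0.05 to 0.40) and 0.15 from mock (−0.07 to 0.37), and neither passed (limma, adjusted p = 0.472 and 0.536).

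PTPN14, a FERM-domain tyrosine phosphatase whose PPxY motifs bind the WW domains of YAP, rose against vector and was not called against mock. Its brighter probe, ILMN_1917341, is annotated to a cDNA accession rather than a RefSeq transcript. It gave log2 intensities of 7.69, 7.68 and 7.52 in mock, 7.72, 7.10 and 7.49 in vector, and 7.97, 7.84 and 8.02 in YAP-S127A arrays. After normalization all YAP-S127A arrays lay above all controls, but in the deposited signals they overlapped, with 289 units on vector array 1 and 249 on YAP-S127A array 3. The difference was 0.51 ± 0.13 (log2, SE) from vector and 0.32 ± 0.13 from mock (limma, adjusted p = 0.0234 and 0.183). The change against vector was not tested against that from mock. Against vector the call was lost when vector array 2 was left out (difference 0.34, adjusted p = 0.194), and also without vector array 3 (0.0678), without YAP-S127A array 1 (0.0925) or 3 (0.0997), and after scaling to equal medians (0.193).

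The other PTPN14 probe, ILMN_1750240, is annotated to a RefSeq transcript. It gave 6.69, 6.39 and 6.19 in mock, 6.47, 6.34 and 6.20 in vector, and 6.81, 6.64 and 6.60 in YAP-S127A arrays, on the log2 scale. It differed by 0.35 ± 0.12 from vector and 0.26 ± 0.12 from mock without passing over the 35423 probes tested (limma, adjusted p = 0.176 and 0.359). In this probe fit ILMN_1917341 had an adjusted p of 0.02975 and 0.2426 (limma), where the values given above came from the gene fit. Its call against vector was there also lost without YAP-S127A array 2 (limma, adjusted p = 0.059). For ILMN_1750240 the following holds. Its YAP-S127A arrays lay above the vector arrays and overlapped the mock arrays. Both probes differed in the same direction, and the sizes lay within each other's intervals.

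The FERM-domain proteins did not pass. NF2, the merlin tumour suppressor that recruits LATS to the membrane, had 4 probes, all of them dim, with log2 intensities from 5.76 to 6.65 over all arrays. They differed from vector by −0.00 to 0.09 and from mock by 0.04 to 0.12, and the groups overlapped on each. For the brightest, ILMN_1747580, the 95% interval of the difference ran from −0.23 to 0.22 against vector. FRMD6, the human relative of the fly protein Expanded, had 3 probes. The brightest, ILMN_1769282, gave 7.04, 7.24 and 6.81 in mock, 6.92, 7.01 and 7.21 in vector, and 7.02, 6.77 and 6.80 in YAP-S127A arrays, with differences of −0.19 ± 0.12 and −0.17 ± 0.12. ILMN_2330787 differed by 0.17 from vector and −0.04 from mock, and the probe under the filter by −0.13 and −0.05, so that the 3 probes differed in sign against vector and were all slightly lower than in mock arrays.

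Of the angiomotins, scaffolds that bind YAP through PPxY motifs and tie it to actin and tight junctions, none passed. AMOT came nearest. Its log2 intensities were 8.29, 7.95 and 8.04 in mock, 8.02, 8.05 and 8.0 in vector, and 8.24, 8.35 and 8.39 with YAP-S127A. These last lay above the vector arrays but overlapped mock array 1. The difference was 0.30 ± 0.11 from vector and 0.24 ± 0.11 from mock (limma, adjusted p = 0.133 and 0.253), and no alternative setting gave a call.

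AMOTL2, reported elsewhere as a YAP target, gave 7.34, 6.97 and 6.86 in mock, 6.73, 6.89 and 6.92 in vector, and 6.92, 7.28 and 6.94 in YAP-S127A arrays, on the log2 scale. Here mock array 1 was the highest of all 9, and the 95% interval of the difference was −0.06 to 0.46 from vector and −0.27 to 0.25 from mock. AMOTL1 lay near the filter level, from 6.24 to 6.62 over all arrays, and differed by −0.07 from vector (95% interval −0.30 to 0.16) and by −0.09 from mock. For a probe as dim as that of AMOTL1 the offset and remaining background compress a change, and by how much was not tested. The AMOTL2 probe was brighter, with means of 6.85 in vector and 7.06 in mock arrays. Those of the bright AJUBA probe were 6.89 and 7.10. Whether these probes respond alike to a change in their transcripts was not tested.

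**Figure D3:**
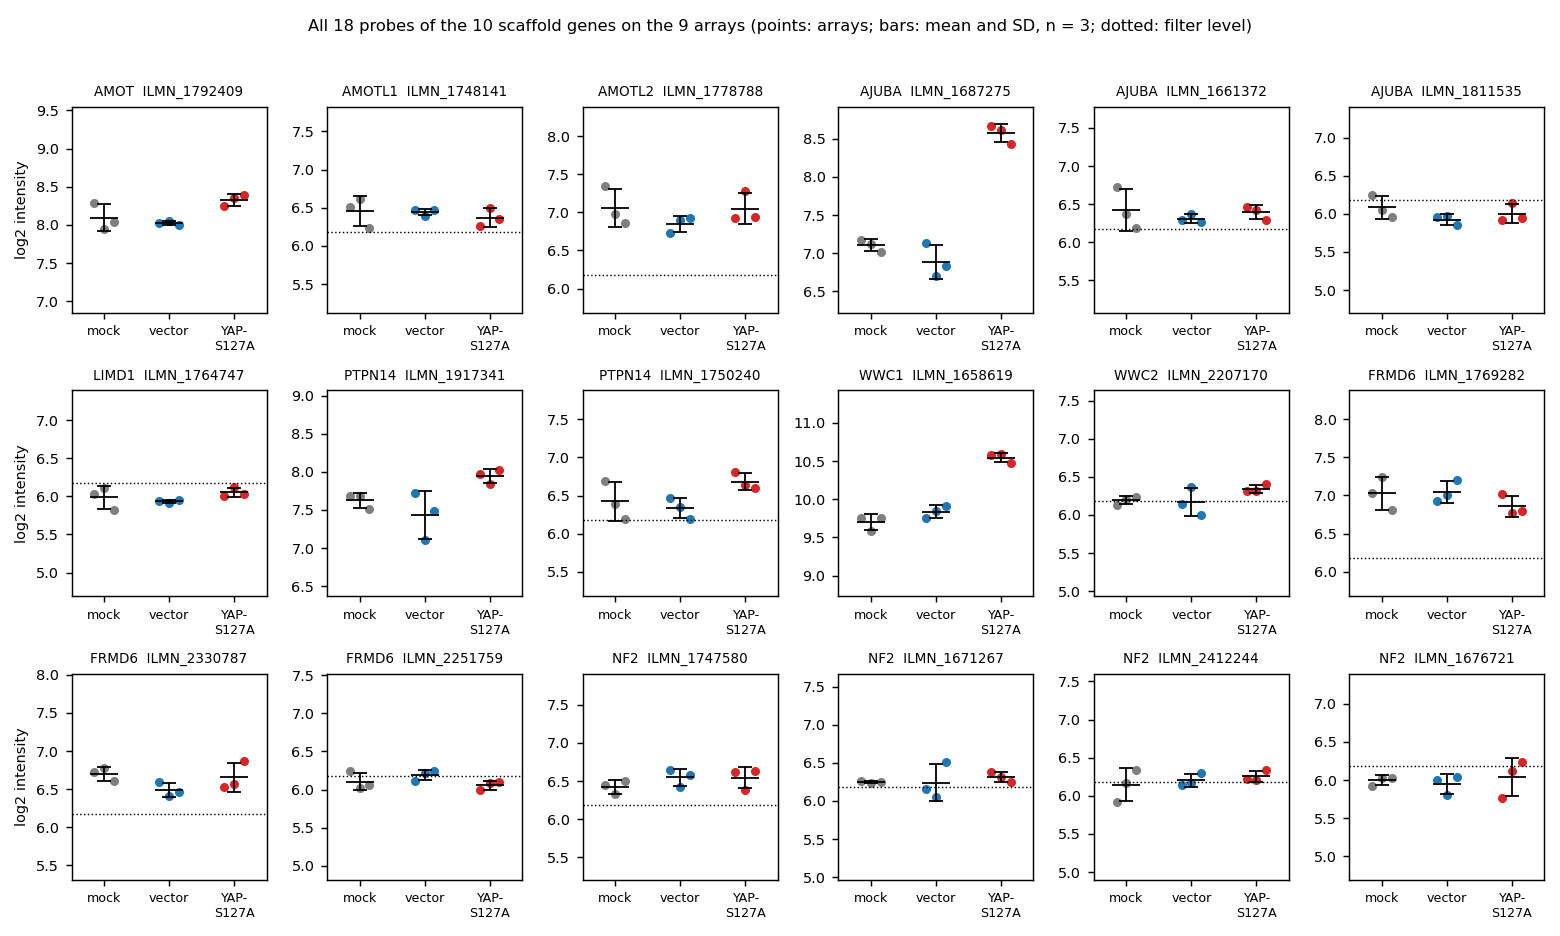
Normalized log2 intensity of the 18 probes, 1 panel each, in the 3 mock, 3 vector and 3 YAP-S127A arrays. Points are arrays, bars the mean and SD (n = 3), the dotted line the filter level of 6.18, and every panel spans the same range of log2 units around its own level. Full separation of YAP-S127A from the controls is seen on 3 probes, the bright ones of AJUBA and PTPN14 and that of WWC1.

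Over the 14 probes that passed the filter, 3 were called higher and 0 lower against vector, and 2 higher and 0 lower against mock, where 1.14% and 1.38% of all 35423 probes were called higher. Of the 14, 3 had all YAP-S127A arrays above all 6 control arrays, where 4.27% of all probes had such separation. By gene these were 3 of 9, against 5.62% of all genes tested. The 18 probes had within-group SDs of 0.013 to 0.31 on the log2 scale, with a median of 0.11. The largest was that of PTPN14 in vector arrays, where array 2 lay low.

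**Figure D4:**
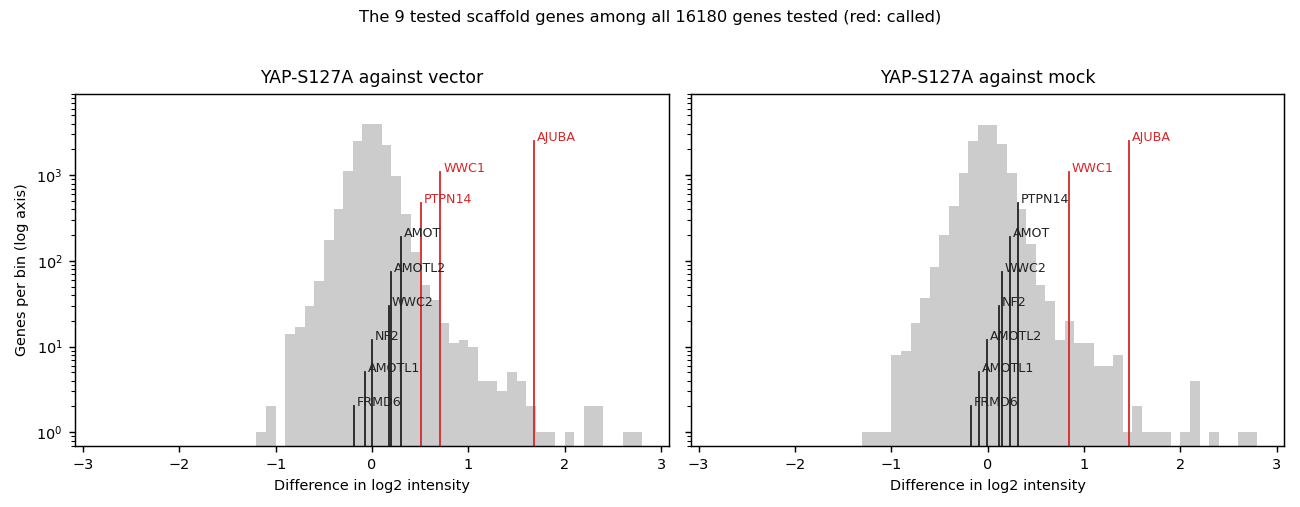
Number of genes per difference in log2 intensity (bins of 0.1, counts on a log axis) for YAP-S127A against vector (left) and mock (right), over all 16180 genes tested. Vertical lines mark the 9 tested scaffold genes, red where called. AJUBA and WWC1 stand in the upper tail of both, and PTPN14 in that against vector. AMOT against vector and PTPN14 against mock lie at percentiles 96.1 and 96.06 without a call, and the other lines fall nearer the centre.

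The controls were compared with each other to see what the vector alone changed. Of the 9 genes, 0 were called between vector and mock (limma) and 0 had an unadjusted p under 0.05, where 0.0124% and 5.63% of all genes did. Over the 18 probes the differences ran from −0.22, on the bright AJUBA probe, to 0.14, on WWC1. The AJUBA level was thus lower in vector than in mock arrays by 0.22 ± 0.11 (log2, SE; adjusted p = 0.903), which did not pass the threshold.

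The genes most like the members in pattern were found by Pearson's correlation of log2 intensity over the 9 arrays, which fall into YAP-S127A and control arrays, so that r mostly follows that split and is given as a description. For AJUBA they were CYTH3, which encodes an exchange factor for ARF GTPases (r = 0.996), PHLDB2, a cortical protein that anchors microtubules (0.989), and CAVIN1, a coat protein of caveolae (0.986). For WWC1 they were VGLL1, a cofactor of TEAD factors (0.989), CCN2, a matricellular YAP target (0.987), and KRT7, a simple epithelial keratin (0.982). CYTH3 rose by 0.92 against vector and 0.87 against mock, and PHLDB2 by 1.06 and 0.89.

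Further genes of the pathway were read from lists. Across all genes tested, 15.6% against vector and 17.0% against mock had an unadjusted p under 0.05 (limma), in either direction. Of 10 tested close relatives of the scaffolds, 1 rose against each control and 0 fell, while 4 and 6 had an unadjusted p under 0.05. The gene was TRIP6, a zyxin-family LIM protein that binds LATS, which rose by 0.44 ± 0.12 (log2, SE) and 0.49 ± 0.12 (limma, adjusted p = 0.0359 and 0.016). That call ended after scaling to equal medians (adjusted p = 0.247 and 0.144), without each of 6 single arrays against vector and without 3 against mock. WTIP, the remaining Ajuba-family gene, differed by 0.28 from vector, WWC3 by 0.40 from mock and the linker EZR by 0.24 and 0.33, all without a call. LPP was lower, by −0.27 from vector and −0.34 from mock, and LIMA1 by −0.20 and −0.32, also without a call. LIMA1 was called lower against mock in 2 of 17 alternatives. Of the 4 and 6 relatives at an unadjusted p under 0.05, 3 and 4 were higher. With the mean of its probes WTIP was called higher against both controls (0.38 and 0.34, adjusted p = 0.0196 and 0.0322), EZR was called against mock in 4 of 17 alternatives, and WWC3 without mock array 3 (0.53, adjusted p = 0.00924). The relatives had a median difference of 0.11 against vector and 0.17 against mock.

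Of 11 Hippo kinase cascade genes, 0 were called against vector and 0 against mock (limma), while 5 and 4 had an unadjusted p under 0.05. Of all genes, 15.6% and 17.0% did. LATS2, which encodes a kinase that several of the scaffolds act on, differed by 0.41 ± 0.12 from vector (adjusted p = 0.0521), STK3 by 0.35 and TAOK1 by −0.45. From mock LATS2 differed by 0.24, STK3 by 0.27 and TAOK1 by 0.40, so that the TAOK1 mean lay between those of the controls. Of 17 alternatives each, LATS2 was called against vector in 3, STK3 in 2 and TAOK1 in 3, and TAOK1 was called higher against mock in 1. TAOK1, a kinase above MST, was called between the controls, 0.85 ± 0.13 higher in vector than in mock arrays (limma, adjusted p = 0.0154). That call was lost without vector array 2 or 3 or mock array 2, with adjusted p up to 0.382. It was also lost with the deposited log2 values and in the fit on means of probes. In the latter the TAOK1 difference stayed at 0.85, while its adjusted p (limma) moved to 0.05275. The cascade's median difference was 0.07 against vector and 0.19 against mock.

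Polarity and junction genes were not called at the settings used here. Of 10 apical polarity genes 0 passed against either control, with 1 at an unadjusted p under 0.05 in each comparison, LIN7C, which encodes a PDZ adaptor of the Crumbs complex, at −0.24 and −0.34. Of 5 basolateral polarity genes 0 passed, with 0 and 1 at an unadjusted p under 0.05, the scaffold SCRIB at 0.02 from vector and 0.31 from mock. Of 7 adherens and tight junction genes 0 passed, with 4 in each comparison at an unadjusted p under 0.05, where 15.6% and 17.0% of all genes were. Against vector these were CTNNB1, which encodes beta-catenin, at −0.34, CTNND1 at −0.28, the E-cadherin gene CDH1 at −0.27 and the vinculin gene VCL at 0.25, and the list's median was −0.26. Against mock they were CTNND1 at −0.30, CGN at −0.29, TJP1 at 0.27 and VCL at 0.24, and the median was −0.13. CTNNB1 and CDH1 differed from mock by −0.13 and −0.19, with an unadjusted p above 0.05. With the deposited log2 values VCL was called against both controls (limma, adjusted p = 0.0439 and 0.0463), in 1 of 17 alternatives each. SCRIB was called against mock in 2 of 17, with these values and without background correction (0.0332 and 0.0389). With the mean of its probes VCL differed by only 0.03 from vector and 0.04 from mock (adjusted p = 0.929 and 0.871). SCRIB then differed by 0.05 from mock (0.8235).

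The regulators of angiomotin turnover, which include the tankyrase TNKS and the ubiquitin ligases RNF146 and ITCH, had 0 of 6 called and 0 at an unadjusted p under 0.05 against either control, with medians of 0.00 and 0.03. Of 4 tested Fat and Dachsous genes, 0 were called against vector, with 1 at an unadjusted p under 0.05, and 1 rose and 0 fell against mock. FJX1, a Golgi kinase-like protein related to fly four-jointed, rose against mock (0.60 ± 0.14, adjusted p = 0.014) and differed by 0.38 from vector, called only without mock array 1 (adjusted p = 0.0418). The rise against mock was 0.39 (adjusted p = 0.0952) without mock array 1 and was also no longer called without YAP-S127A array 1 or 2 or after scaling to equal medians.

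**Figure D5:**
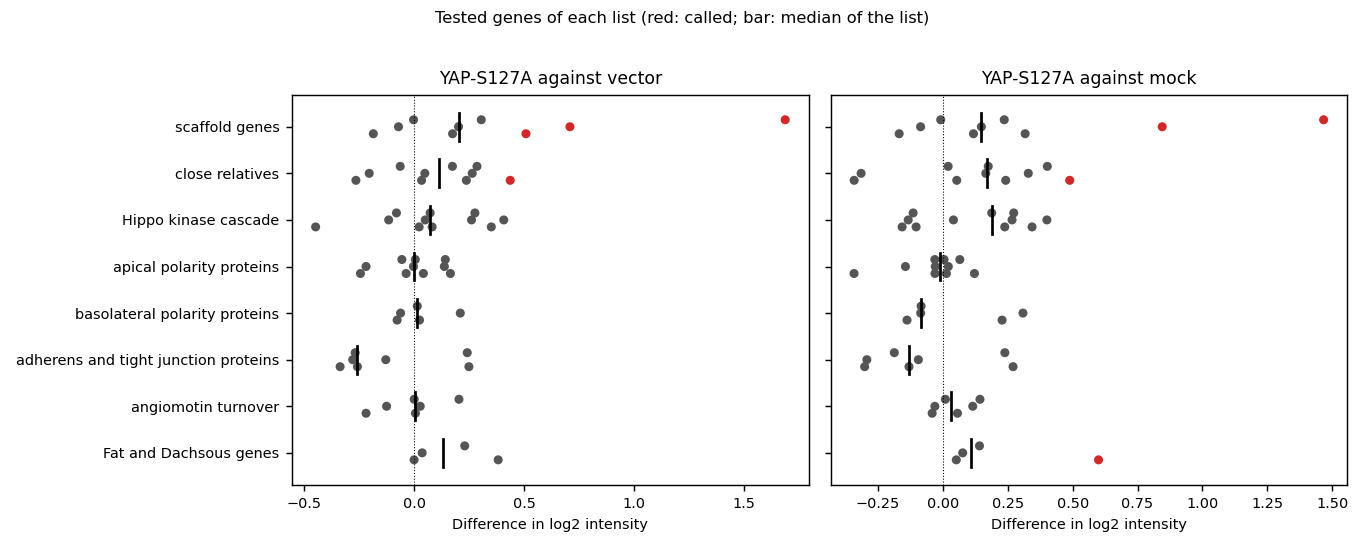
Difference in log2 intensity of each tested gene of 8 lists, for YAP-S127A against vector (left) and mock (right). Points are genes, red where called, and bars are list medians. The 9 tested scaffold genes hold 3 of the 4 red points against vector and 2 of the 4 against mock. Of all genes tested, 1.76% and 2.18% were called higher. The lists were chosen with earlier results of these data known, so this split is a description only.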

How the data were processed

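RNA of 9 samples was hybridised to Illumina bead arrays. The deposited signal table holds a bead-summarised intensity per probe on a linear scale, with no background subtraction seen, and the deposited series matrix holds log2 values with the same quantiles in every array. The submitters' processing notes name BeadStudio, and its settings are not given here. Signals were corrected with normexp (offset 50), logged to base 2 and quantile normalized with limma 3.58.1 in R 4.3.3. Probes above the lower quartile of mean level (6.18) were kept, 35423 in all. A probe annotation listed 1 gene symbol for 30113 probes, several for 8 and none for 17110, and symbols were updated by gene ID for 30074. The brightest probe stood for a gene, which gave 16180 genes. The gene fit (limma) held 9 arrays and 3 group means. Probes under the filter were fitted together with all probes. The normexp offset and any remaining background shrink the changes of dim probes.

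Named were every probe of the members, YAP1, CCN1, the 3 genes most correlated with each member called against both controls, and called or lowest-p members of the lists. The members and lists were chosen with earlier results of these data known. The fit was tested on simulated data. Same-numbered arrays of different groups did not deviate together (correlations of −0.15 to 0.10), so numbers were not taken as pairs. Marker lists for epithelial, fibroblast, immune and endothelial cells checked the labelled cell type. Alternatives were no background correction, no filter, cyclic loess, scaling to equal medians, the deposited log2 values, the mean of probes, trended and robust moderation, the replicate block, and leaving out each array.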

Additional observations from a re-analysis of the deposited data

How the results depend on the processing

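AJUBA and WWC1 remained called against both controls in all 17 alternatives each. For AJUBA every alternative used the bright probe, alone or within a mean, so none of them bears on the disagreement among its probes. AJUBA ranged from 0.89 to 1.81 against vector and from 0.72 to 1.53 against mock, lowest with the mean of its probes, and WWC1 from 0.66 to 0.75 and from 0.78 to 0.88. PTPN14 was called against vector in 12 of 17 (0.34 to 0.65, adjusted p from 0.00583 to 0.194). In the probe fit its brighter probe was called in 10 of 16. The count of scaffold genes called was 2 or 3 against vector, 2 against mock and 0 between the controls in every alternative, mock array 1 left out included. Among scaffold, list and other named genes no called difference changed sign.

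With the replicate block, 558 genes were called against vector and 648 against mock, with the same counts of scaffold genes, 3 and 2. Scaling to equal medians called 366 genes against vector, and 38.5% of these were higher, against 50.8% here, and against mock 31.3% were higher, against 51.2%. Between the controls, 2 genes and 3 probes were called here. The deposited log2 values gave 1 gene and 1 probe, no background correction 1 probe, and the mean of probes 1 gene. The causes were not tested.

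Leaving out single arrays gave 299 to 729 genes and 393 to 918 probes against vector (fewest without YAP-S127A array 2), 332 to 808 genes and 441 to 1084 probes against mock (fewest without YAP-S127A array 2), and 1 to 54 genes and 1 to 104 probes between the controls (most without mock array 3). No file used here names a slide, so that block was not run. Signal over background limits LIMD1, WWC2, NF2 and AMOTL1, whose probes lay near the median or below it.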
